A study of Mus musculus with 7 samples.

Results

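Toll-like receptors and the proteins that pair with them or carry them were compared between splenic memory B cells (MBCs) and plasma cells (PCs). The 10 genes were chosen by name: the receptors Tlr1, Tlr2, Tlr4 and Tlr6 of the cell surface, the receptors Tlr3, Tlr7 and Tlr9 of the endosome, the receptor homolog Cd180 with its partner Ly86, and the transport protein Unc93b1. They are 10 of the 48795 genes in the deposited table of transcript abundance, and all 10 reached the minimum for testing. Tlr1, Tlr9, Cd180 and Ly86 fell from MBCs to PCs, with log2 fold changes from -4.42 for Tlr1 to -2.33 for Ly86, whereas no member was called higher in PCs. Tlr2 lay higher in PCs after scaling, with a log2 fold change of 1.72 that was not called (limma, adjusted p = 0.107). Tlr4 gave no difference beyond the spread between libraries. The fold change and call of Tlr7 depended on a single MBC library, and Unc93b1 was not called after scaling with or without it. Tlr3 and Tlr6 lay lower in PCs without a call, and a different MBC library was far above the rest for both.

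All 7 libraries came from wild type C57BL/6 mice, females aged 8 to 12 weeks, that had received sheep red blood cells intravenously 10 days earlier. No unimmunized or genetically altered group was included, so both populations share the immunization and the time. MBCs (3 libraries) were sorted as B220+ CD138- IgD- cells that also carried CD38 and CD273, and PCs (4 libraries) as B220lo CD138+ IgD- cells, in both cases after B cells had been enriched with beads against CD43. RNA was amplified before sequencing, and the labels do not say whether libraries of a group came from separate animals or pools, so the p-values measure the spread between these libraries, which may be in part technical.

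Toll-like receptors recognise microbial molecules and pass the signal through the adaptors MyD88 and TRIF to NF-kappaB and interferon regulatory factors. Surface receptors work in pairs, TLR1 or TLR6 with TLR2 for lipoproteins and TLR4 with MD-2 for lipopolysaccharide, whereas endosomal receptors read nucleic acids and need UNC93B1 to leave the endoplasmic reticulum. CD180, also called RP105, resembles TLR4 outside the cell, lacks the signalling domain, depends on MD-1 (the product of Ly86), and is known in B cells for its effect on responses to lipopolysaccharide.

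Values are given as scaled TPM, that is, TPM (a read count per gene length, set to a fixed library total) divided by a factor for each library, because immunoglobulin transcripts took 49.4% to 55.9% of the TPM in PCs and 1.65% to 3.16% in MBCs. Mitochondrial transcripts took 33.2%, 33.5% and 19.7% in MBC replicates 1 to 3 and 8.10% to 9.80% in PCs, which moved with every difference between the groups, and their part in it was not tested. A transcript of 1 kb at 1 TPM stood for an estimated 6.16 to 16.3 reads. One MBC library stood apart in its likeness to PCs: across all tested genes, MBC replicate 3 had a Pearson's r of 0.70 to 0.777 with the PC libraries. The other MBC libraries had 0.537 to 0.564 with them. MBC pairs, with or without replicate 3, had 0.675 to 0.687, and PC pairs 0.85 to 0.957. Genes above 0 numbered 12983, 11527 and 18061 in MBC replicates 1 to 3, and the part of depth in these correlations was not tested. MBC replicate 3 was also low for genes of the sort, with 6.77 scaled TPM of Cd38 against 130.3 and 185.7 in MBC replicates 1 and 2. Results that rest on this library are therefore given with and without it. In sorted bulk cells, fewer cells carrying a transcript and less of it per cell cannot be told apart.

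A gene was called where limma, fitted across the 11573 tested genes, gave a Benjamini-Hochberg adjusted p below 0.05 and a log2 fold change of 1 or more in size, with fold changes taken as PC minus MBC on log2(scaled TPM + 1). By this rule 4 of the 10 members were lower in PCs and 0 were higher (1 at an unadjusted p below 0.05, which was Tlr2), where 2.14% of all tested genes were called lower and 6.41% higher. The groups did not overlap for 6 members in the lower direction and 1 in the higher, against 8.68% and 13.0% of all tested genes. Without MBC replicate 3, 8 members could be tested and 5 were called lower, against 8.20% of the genes tested then, and 0 were called higher, against 15.1%. The median log2 fold change was -2.15 over the 10 members and 0.14 over all tested genes. Tlr3 and Tlr6 met the minimum only through their MBC values. This forced them lower in PCs as deposited and favoured the same order after scaling, which makes these counts and this median a description. Tlr2 reached 1 TPM in 1 MBC library and 4 PC libraries and met the minimum only with its PC values, so its place in the higher direction is a description too.

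**Figure D1:**
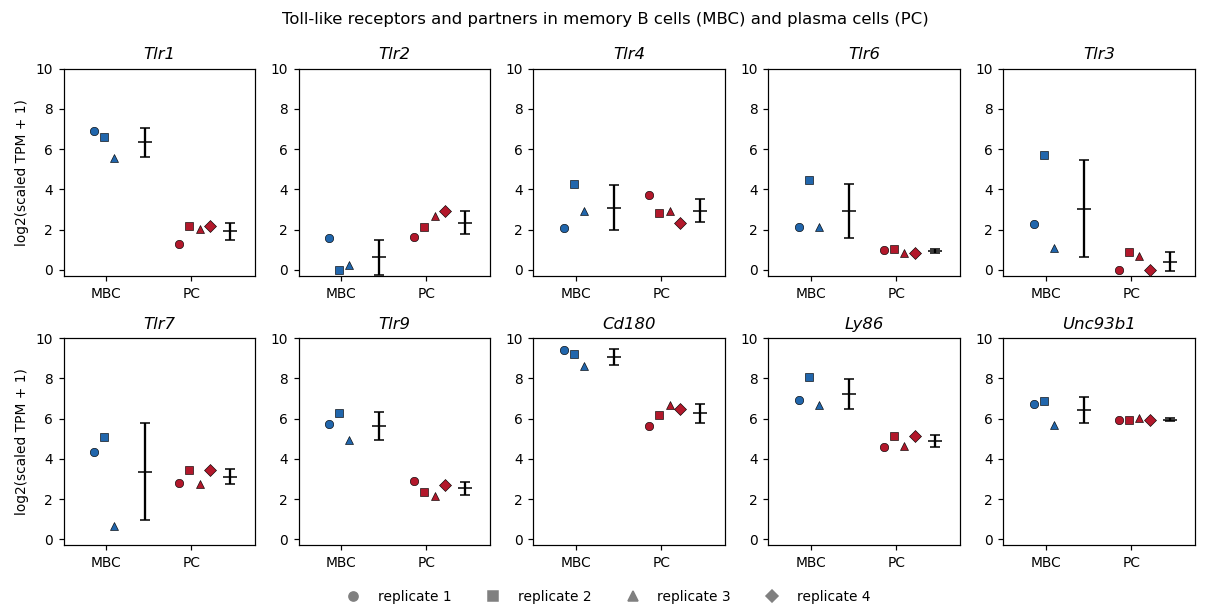
Each panel plots log2(scaled TPM + 1) of 1 gene in the 3 MBC libraries (blue) and 4 PC libraries (red), with symbols for the replicate number and a bar for the group mean ± SD of the plotted values. Tlr1, Tlr9, Cd180 and Ly86 lay lower in every PC library than in any MBC library, Tlr2 lay higher, and Tlr7 of MBC replicate 3 fell below all PC libraries.

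Tlr1 (ENSMUSG00000044827, chr5:64924679-64933563 on the minus strand of GRCm38) encodes the surface receptor that joins TLR2 to read triacylated lipoproteins. Its scaled TPM was 117.6, 95.4 and 45.4 for MBC replicates 1 to 3, against 1.45, 3.51, 3.14 and 3.54 for PC replicates 1 to 4. The same order of replicates holds for all values that follow. The lowest MBC library, replicate 3, lay well above the highest PC library. MBCs averaged 86.1 ± 37.0 (SD, n = 3) and PCs 2.91 ± 0.991 (SD, n = 4), which gave a log2 fold change of -4.42 with an SE of 0.48 (limma, adjusted p = 4.0e-04). Counted from the most negative fold change, Tlr1 had rank 2 of the 11573 tested genes. Without MBC replicate 3 the log2 fold change was -4.78 (limma, adjusted p = 4.5e-04).

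Tlr6 (ENSMUSG00000051498, chr5:64952031-64960097, minus strand) lies beside Tlr1 and encodes the partner of TLR2 for diacylated lipoproteins. It was 3.42, 21.3 and 3.38 scaled TPM in the MBC libraries against 0.795 to 1.07 in the 4 PC libraries. All MBC values were above all PC values, but replicate 2 was far above the other MBC libraries, and the log2 fold change of -1.98 (SE 0.65) was not called (limma, adjusted p = 0.0974). The genes share sequence: 13.6% of all stretches of 50 bases in annotated Tlr1 transcripts also occur in Tlr6, and 12.3% of those in Tlr6 occur in Tlr1, so reads from these parts could have been assigned to either.

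Tlr2 (ENSMUSG00000027995, chr3:83836272-83841767, minus strand) encodes the common partner of TLR1 and TLR6. It was 2.04, 0 and 0.195 scaled TPM in the MBC libraries and 2.12, 3.33, 5.43 and 6.46 in the PC libraries. The PC libraries were all higher, though PC replicate 1 exceeded MBC replicate 1 by little. This order holds after scaling only: as deposited, Tlr2 was 3.71 TPM in MBC replicate 1 and 1.35 and 2.24 in PC replicates 1 and 2. The value of 0 in MBC replicate 2 allows up to 0.104 scaled TPM at a floor of 3 estimated reads. The log2 fold change of 1.72 (SE 0.58) was not called (limma, adjusted p = 0.107), nor was it at 1.46 without MBC replicate 3 (limma, adjusted p = 0.127).

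Tlr4 (ENSMUSG00000039005, chr4:66827584-66930284, plus strand), the lipopolysaccharide receptor, was 3.29, 18.3 and 6.53 scaled TPM in the MBC libraries. The PC libraries had 12.0, 6.02, 6.46 and 4.0. The groups overlapped throughout, with the highest and the lowest library both among MBCs. The log2 fold change was -0.16 with a 95% interval from -1.56 to 1.23 (limma, adjusted p = 0.898), and a fall as large as that of Ly86 lies outside this interval.

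Cd180 (ENSMUSG00000021624, chr13:102693558-102739629, plus strand) was the most abundant member in both populations. It was 669 scaled TPM in MBC replicate 1, 582.5 in replicate 2 and 386.2 in replicate 3, against 49.4, 71.7, 101.8 and 89.5 in the PC libraries. Every MBC library was far above the highest PC library. MBCs averaged 545.9 ± 144.9 (SD, n = 3) and PCs 78.1 ± 22.8 (SD, n = 4), and the log2 fold change was -2.80 (SE 0.36; limma, adjusted p = 0.0011) and -3.03 without MBC replicate 3 (limma, adjusted p = 0.0012). The gene overlaps Mast4 on the other strand, with which it shares 3.03% of its stretches of 50 bases.

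Ly86 (ENSMUSG00000021423, chr13:37345208-37419036, plus strand), whose product MD-1 binds CD180 and holds it at the surface, was 119.2, 268.5 and 99.6 scaled TPM in the MBC libraries and 23.0, 34.4, 24.2 and 34.6 in the PC libraries. The groups did not overlap, and MBC replicate 2 was the highest. Ly86 fell from 162.4 ± 92.3 (SD, n = 3) in MBCs to 29.1 ± 6.29 (SD, n = 4) in PCs. Its log2 fold change was -2.33 (SE 0.41; limma, adjusted p = 0.0069) and -2.60 without MBC replicate 3 (limma, adjusted p = 0.0045). The transcripts for both parts of the complex were thus lower in PCs.

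Among the endosomal receptors, Tlr9 (ENSMUSG00000045322, chr9:106222598-106226883, plus strand), the receptor for unmethylated CpG DNA, was 52.5, 77.0 and 29.2 scaled TPM in the MBC libraries. The PC libraries had 6.54, 4.09, 3.44 and 5.49, all below the lowest MBC library. Tlr9 fell from 52.9 ± 23.9 (SD, n = 3) in MBCs to 4.89 ± 1.39 (SD, n = 4) in PCs. Its log2 fold change was -3.12 (SE 0.46; limma, adjusted p = 0.0027). Without MBC replicate 3 it was -3.46 (limma, adjusted p = 0.0016).

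Tlr7 (ENSMUSG00000044583, chrX:167304929-167330558, minus strand), the receptor for single-stranded RNA, had a scaled TPM of 19.6 in MBC replicate 1, 33.3 in replicate 2 and 0.565 in replicate 3. The PC libraries had 6.01, 10.0, 5.71 and 9.90. Thus replicates 1 and 2 lay above all PC libraries and replicate 3 below them all. The log2 fold change was -0.25 (SE 0.94; 95% interval from -2.37 to 1.86) with all libraries and was not called (limma, adjusted p = 0.896). Without MBC replicate 3 it was -1.60 (SE 0.45) and was called (limma, adjusted p = 0.0376). Within the more frequent title prefix, which holds MBC replicates 1 and 2 and PC replicates 1 to 3, it was -1.72 and was not called (limma, adjusted p = 0.0761).

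Tlr3 (ENSMUSG00000031639, chr8:45395665-45411080, minus strand), which reads double-stranded RNA and signals through TRIF alone, was 3.91, 51.7 and 1.15 scaled TPM in the MBC libraries. It was listed at 0 in PC replicates 1 and 4, which allows up to 0.0778 and 0.0610 scaled TPM, and was 0.847 and 0.627 in PC replicates 2 and 3. The MBC libraries were all higher, with replicate 2 far above the rest, and the log2 fold change of -2.64 (SE 0.96) was not called (limma, adjusted p = 0.129). Of its stretches of 50 bases, 5.3% also belong to the overlapping gene Gm45542.

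Unc93b1 (ENSMUSG00000036908, chr19:3935186-3949340, plus strand), the protein that escorts the endosomal receptors, was 104.6, 116.5 and 50.2 scaled TPM in the MBC libraries. The PC libraries had 59.8, 59.99, 64.5 and 59.6, a far narrower spread. The groups overlapped, because MBC replicate 3 lay below all PC libraries and replicates 1 and 2 lay above them. The log2 fold change was -0.47 (95% interval from -1.28 to 0.34; limma, adjusted p = 0.465), and -0.85 without MBC replicate 3 (SE 0.26; 95% interval from -1.45 to -0.25; limma, adjusted p = 0.0506), which was not called. With TPM as deposited it was called (-1.78, limma, adjusted p = 0.0058).

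**Figure D2:**
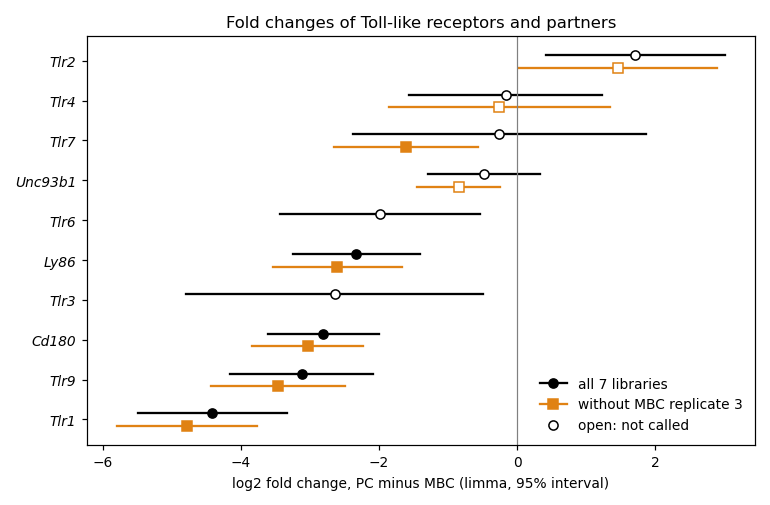
Log2 fold changes (PC minus MBC, limma) of the 10 members with 95% intervals, for all 7 libraries (black circles) and without MBC replicate 3 (orange squares), with filled symbols for called genes. Tlr1, Tlr9, Cd180 and Ly86 were called in both fits, Tlr7 moved from -0.25 to -1.60, and Tlr3 and Tlr6 have no second value because they did not reach the minimum.

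The 250 bases before the annotated start are shown for the 4 called members, which were chosen by their call, and shared regulation was not tested. Sequences are from RefSeq on GRCm38.p6, on the strand of the gene, and capitals mark matches to motifs of B cell regulators on either strand: GAGGAA for PU.1, ATGCAAAT for the octamer, GAAANNGAA for IRF factors, CCCNNGGGA for EBF1 and CAGGTG for an E-box. RefSeq entries were at hand for 7 of the 10 members.
Tlr1 promoter, chr5:64933559-64933808, minus strand: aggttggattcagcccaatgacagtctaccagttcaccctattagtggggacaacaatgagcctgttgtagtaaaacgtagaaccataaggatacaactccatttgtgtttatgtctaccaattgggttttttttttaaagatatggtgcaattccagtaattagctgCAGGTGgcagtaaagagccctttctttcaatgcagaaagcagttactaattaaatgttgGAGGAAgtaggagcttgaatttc
Tlr9 promoter, chr9:106222348-106222597, plus strand: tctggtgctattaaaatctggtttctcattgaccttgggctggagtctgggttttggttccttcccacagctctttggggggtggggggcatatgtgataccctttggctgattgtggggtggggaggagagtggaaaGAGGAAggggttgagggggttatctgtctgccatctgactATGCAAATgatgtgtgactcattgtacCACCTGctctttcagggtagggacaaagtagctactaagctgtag
Cd180 promoter, chr13:102693297-102693546, plus strand: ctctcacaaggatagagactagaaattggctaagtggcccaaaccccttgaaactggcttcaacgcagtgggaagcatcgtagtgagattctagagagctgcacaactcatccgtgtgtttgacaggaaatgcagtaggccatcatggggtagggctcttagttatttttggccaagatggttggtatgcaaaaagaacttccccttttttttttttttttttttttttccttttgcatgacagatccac
Ly86 promoter, chr13:37345095-37345344, plus strand: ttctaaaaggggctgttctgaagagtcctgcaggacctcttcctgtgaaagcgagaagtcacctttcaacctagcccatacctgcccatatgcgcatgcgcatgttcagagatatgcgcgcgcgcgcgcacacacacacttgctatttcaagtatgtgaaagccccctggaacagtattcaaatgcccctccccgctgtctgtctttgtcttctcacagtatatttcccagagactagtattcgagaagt

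The Tlr1 window held an E-box 82 bases and a PU.1 match 23 bases before the start. The Tlr9 window held a PU.1 match at 112 bases, an octamer at 72 bases and an E-box on the opposite strand at 45 bases before the start. None of the 5 motifs was matched in the Cd180 and Ly86 windows, in a further Cd180 start or in a further Tlr1 start. Of 32851 promoters of this length, 23.25% held the PU.1 letters, 17.22% the E-box, 7.129% the IRF letters, 5.598% the EBF1 letters and 1.601% the octamer. In the windows of the remaining members, Tlr2 held an E-box 178 bases before its start, Tlr6 a pair of IRF matches that overlap each other at 115 and 109 bases, all on the opposite strand, and Tlr3 no match. The matches in the windows printed do not overlap one another, and they describe the letters of these windows and not binding.

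Levels per transcript length can be set side by side within a library, so the make-up of the receptor transcripts was taken as the share of each receptor in their summed TPM. The 7 receptors summed to 202.3, 297.2 and 86.4 scaled TPM in the MBC libraries and to between 25.6 and 30.2 in the PC libraries. Tlr1 made up 58.1%, 32.1% and 52.6% of the sum in the MBC libraries and 4.98%, 12.2%, 12.2% and 11.7% in the PC libraries. It was thus the leading receptor transcript in every MBC library and in no PC library.

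Tlr9 followed in MBCs at 26.0%, 25.9% and 33.8%, and had 22.5%, 14.2%, 13.4% and 18.2% in the PC libraries. The shares of Tlr7 were 9.67%, 11.2% and 0.654% in MBCs and 20.7%, 34.7%, 22.3% and 32.8% in PCs. Tlr4 went from 1.63%, 6.17% and 7.56% to 41.1%, 20.9%, 25.2% and 13.3%. In PCs the leading receptor was Tlr4 in replicates 1 and 3 and Tlr7 in replicates 2 and 4. The shares sum to the same total in each library, so a lower share of Tlr1 raises the others. The endosomal receptors together held 35.7% to 54.5% of the sum in MBCs and 38.2% to 51.8% in PCs, with overlap.

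**Figure D3:**
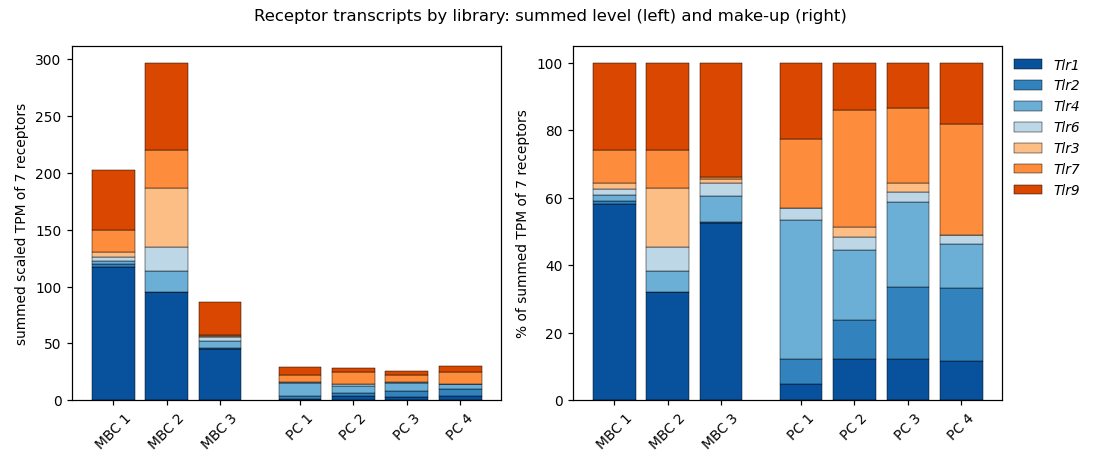
Stacked bars of the 7 receptor transcripts in each library, as summed scaled TPM on the left and as percent of their summed TPM on the right, with surface receptors in blue and endosomal receptors in orange. The sum was 86.4 to 297.2 in MBCs and 25.6 to 30.2 in PCs, and Tlr1 shrank from 32.1% to 58.1% of it to between 4.98% and 12.2%.

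By mean level, MBCs had Cd180 first, then Ly86, Unc93b1, Tlr1, Tlr9, Tlr3, Tlr7, Tlr4, Tlr6 and Tlr2. Between neighbours in this order the ranges of the libraries separated only Cd180 from Ly86 and Tlr6 from Tlr2. PCs had Cd180, Unc93b1, Ly86, Tlr7, Tlr4, Tlr9, Tlr2, Tlr1, Tlr6 and Tlr3. There the ranges separated Unc93b1 from Ly86, Ly86 from Tlr7 and Tlr1 from Tlr6, and the other neighbours did not differ beyond their spread. The receptors from Tlr7 to Tlr1 in PCs lay close together, with means of 7.90 to 2.91 scaled TPM.

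Ratios within a library do not depend on the scaling between libraries, and 4 were compared by the difference of mean log2 ratios. The p-value is the share of the 35 assignments of 3 and 4 libraries with an absolute difference at least as large, which cannot be below 0.0286. Tlr7 to Tlr9 was 0.373, 0.433 and 0.0210 in the MBC libraries and 0.920, 2.40, 1.63 and 1.78 in the PC libraries, so that the groups did not overlap. The difference was 3.41 on the log2 scale (exact two-sided permutation test, p = 0.0286, adjusted p = 0.0381 over the 4 ratios). It was 1.99 without MBC replicate 3, whose Tlr7 was low.

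Unc93b1 to the sum of Tlr7 and Tlr9 was 1.45, 1.06 and 1.69 in the MBC libraries and 4.72, 4.22, 6.96 and 3.85 in the PC libraries. PCs thus had more transcript of the escort protein per transcript of these receptors, by 1.81 on the log2 scale (exact two-sided permutation test, p = 0.0286, adjusted p = 0.0381). Tlr1 to Tlr6 was 33.9, 4.47 and 13.3 in the MBC libraries and 1.40, 3.0, 3.49 and 3.94 in the PC libraries, a difference of -2.20 (exact two-sided permutation test, p = 0.0286, adjusted p = 0.0381), although MBC replicate 2 lay just above PC replicate 4. Tlr6 was only 0.57 to 0.72 TPM in PCs, an estimated 21.5 to 37.3 reads. The part in this ratio of the sequence that Tlr1 and Tlr6 share was not tested. Doubling the one-sided share of the exact permutation test instead would give p = 0.0571 for each of these 3 ratios.

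Ly86 to Cd180 was 0.178, 0.461 and 0.258 in the MBC libraries and 0.469, 0.481, 0.239 and 0.388 in the PC libraries. The groups overlapped, and the difference of 0.46 was within the spread (exact two-sided permutation test, p = 0.314). The partner transcripts, each lower in PCs, kept a ratio of at most 0.481 in all libraries.

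**Figure D4:**
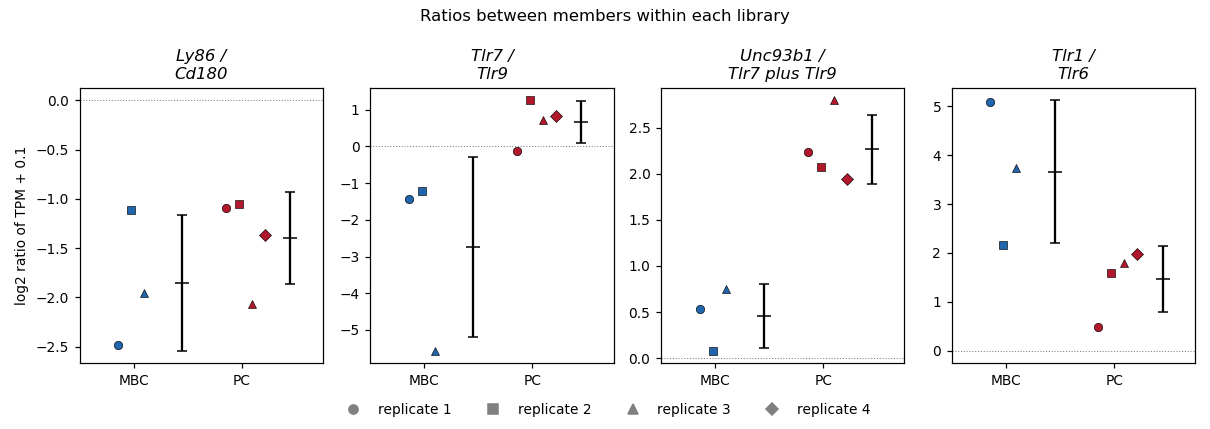
Log2 ratios of TPM + 0.1 between members within each library, with symbols for the replicate number and bars for the group mean ± SD. The groups did not overlap for Tlr7 to Tlr9, Unc93b1 to Tlr7 plus Tlr9, and Tlr1 to Tlr6, and overlapped for Ly86 to Cd180.

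Other genes of the pathway were followed in lists of receptors, accessory proteins, folding and transport proteins, ligand-processing enzymes, adaptors and kinases, transcription factors and negative regulators, 58 genes in all. Of these 48 were tested, 5 were called higher and 3 lower in PCs, and 40 were not called, where 6.41% of all tested genes were called higher and 2.14% lower. Without MBC replicate 3, 47 were tested, 4 were called higher and 6 lower, where the shares over all genes were 15.1% and 8.20%. The median log2 fold change was 0.24, against 0.14 over all tested genes, and 0.0956 against 0.21 without MBC replicate 3, so the order of these medians turned with that library. The genes called without it but not with all libraries were Ap3b1 (-1.36, limma, adjusted p = 0.0228), Ikbkb (-2.49, 0.0141) and Irak3 (-2.05, 0.0372), all lower in PCs and chosen here after their values were seen. None of the 5 remaining mouse receptors was tested: Tlr5 was listed at 0 in all libraries, Tlr12 reached 3.0 scaled TPM in MBC replicate 1, and Tlr8, Tlr11 and Tlr13 stayed at or below 0.541 in every library.

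Of 4 surface accessory genes 2 were tested, 1 was called higher and 0 lower. Ly96 encodes MD-2, which TLR4 needs to bind lipopolysaccharide and which is the homolog of MD-1. It was 2.73, 0.465 and 4.98 scaled TPM in the MBC libraries and 123.8, 41.6, 34.1 and 63.4 in the PC libraries, so that all PC libraries were far above all MBC libraries. Ly96 rose by 4.20 on the log2 scale (SE 0.61; limma, adjusted p = 0.0024), opposite to Ly86, and by 4.58 without MBC replicate 3. It reached 1 TPM in 2 MBC and 4 PC libraries, so it met the minimum only with its PC values. Cd36, a scavenger receptor that presents lipids to TLR2 and TLR6, was 10.7, 12.2 and 9.28 in MBCs and 21.7, 27.5, 13.4 and 36.8 in PCs, which was not called (1.06, limma, adjusted p = 0.171). Cd14, which hands lipopolysaccharide to the receptor, was listed above 0 only in MBC replicate 1 at 1.16 scaled TPM, and Lbp in no library.

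Among the 8 genes of receptor folding and transport, all tested, 2 were called higher and 0 lower. Hsp90b1 encodes gp96, the endoplasmic reticulum chaperone of Toll-like receptors and of many secreted proteins. It rose from 375.8, 239.4 and 186.8 scaled TPM in the MBC libraries to 7225, 9121, 8398 and 7548 in the PC libraries (4.97 on the log2 scale, SE 0.35; limma, adjusted p = 5.4e-05). Lrrc59, an endoplasmic reticulum membrane protein that takes part in the transport of endosomal receptors, was 19.8, 12.2 and 25.7 in MBCs and 85.5, 92.4, 88.9 and 81.5 in PCs (2.18, SE 0.35; limma, adjusted p = 0.0040). The call of Lrrc59 was lost with TPM as deposited (0.89, limma, adjusted p = 0.124). The groups were far apart for both genes. Of the others, 2 had an unadjusted p below 0.05 in the lower direction (limma).

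Of 8 ligand-processing genes, all tested, 1 was called higher and 0 lower. Ctsb, a lysosomal protease, was 29.1, 12.6 and 8.45 scaled TPM in MBCs and 44.8, 63.9, 38.9 and 59.8 in PCs (1.72, SE 0.45; limma, adjusted p = 0.0469). Its call was lost in 14 of 16 alternative settings, among them the fit without MBC replicate 3 (1.35, limma, adjusted p = 0.0516).

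Of 18 adaptors and kinases 17 were tested, 1 was called higher and 1 lower. Ticam1 encodes TRIF, the adaptor of TLR3. It was 8.80, 2.86 and 6.63 scaled TPM in MBCs and 20.7, 21.1, 31.7 and 17.8 in PCs (1.82, SE 0.47; limma, adjusted p = 0.0419), and the call was lost in 11 of 16 settings. Pik3ap1, which encodes the adaptor BCAP that links B cell and Toll-like receptors to phosphoinositide 3-kinase, fell from 34.2, 37.8 and 44.3 in MBCs to 8.02, 6.12, 10.4 and 12.1 in PCs (-2.0, SE 0.39; limma, adjusted p = 0.0124). The call of Pik3ap1 was lost without PC replicate 2 (-1.84, limma, adjusted p = 0.0544). Myd88, the adaptor shared by most of these receptors and chosen here after its values were seen, was 2.91, 2.03 and 5.18 in MBCs and 5.95, 5.05, 5.33 and 3.82 in PCs, with overlap (0.52, limma, adjusted p = 0.570).

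Among the 7 transcription factors, all tested, 0 were called higher and 2 lower. Rel, the NF-kappaB subunit c-Rel, fell from 85.1, 72.3 and 49.5 scaled TPM in MBCs to 11.3, 7.98, 10.4 and 8.74 in PCs (-2.70, SE 0.37; limma, adjusted p = 0.0017). Irf8, a B cell and myeloid interferon regulatory factor, was 130.7, 132.5 and 60.8 in MBCs and 32.8, 21.6, 23.2 and 29.5 in PCs (-1.91, SE 0.38; limma, adjusted p = 0.0145). Neither gene overlapped between the groups, and Irf8 lost its call without PC replicate 2 (-1.81, limma, adjusted p = 0.0555). Of 8 negative regulators 6 were tested and 0 were called in either direction by limma, with 1 of them lower at an unadjusted p below 0.05. That gene, Sigirr, met the minimum only through its MBC values, which forced it lower in PCs as deposited and favoured the same order after scaling.

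**Figure D5:**
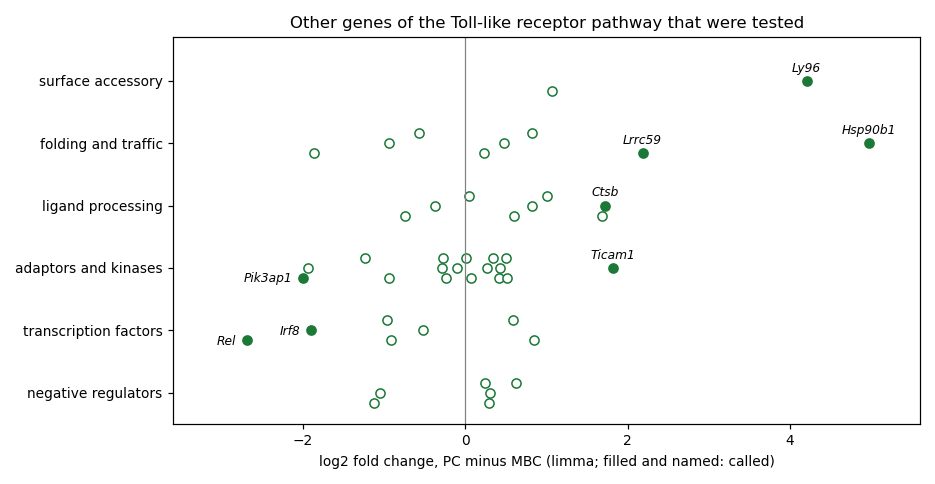
Log2 fold changes (PC minus MBC, limma, all 7 libraries) of the tested pathway genes, 1 point per gene in the row of its list, with called genes filled and named. Ly96 (4.20) and Hsp90b1 (4.97) lay farthest to the right and Rel (-2.70) farthest to the left.

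Markers of the B lineage and of other cells were read beside these results. Ms4a1, which encodes CD20, was 208.3 to 419 scaled TPM in MBCs and 42.1 to 66.0 in PCs (-2.57, SE 0.35; limma, adjusted p = 0.0016). Pax5, the transcription factor that maintains B cell identity, was 137.6 to 789.3 in MBCs and 16.1 to 48.3 in PCs (-3.46, SE 0.60; limma, adjusted p = 0.0063). Both genes fell without overlap between the groups. Cd79a (-0.36, limma, adjusted p = 0.605) and Cd79b (-1.05, 0.108), which encode the signalling chains of the B cell receptor, were not called, whereas the 5 PC markers were all called higher by limma. Of these, Sdc1, which encodes the CD138 of the sort, met the minimum only through its PC values and so had to lie higher in PCs. Prdm1 reached 1 TPM in 2 MBC libraries and also needed its PC values to meet the minimum. Ms4a1 and Pax5 moved with the fall of Tlr1, Tlr9, Cd180 and Ly86, and their part in it was not tested. The 8 myeloid markers summed to 5.73 to 40.2 in MBCs and 23.2 to 31.0 in PCs, of which 0 of the 4 tested were called by limma and 1 was higher at an unadjusted p below 0.05, with Fcgr1 and S100a9 at 0 in all 7 libraries and S100a8 at 0 in MBCs. Without MBC replicate 3, 1 myeloid marker, Csf1r, was called lower in PCs (-1.72, limma, adjusted p = 0.0405).

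Among the MBC libraries the myeloid sum was highest in replicate 2, at 40.2, where Tlr3, Tlr4, Tlr6, Tlr7, Tlr9, Ly86 and Unc93b1 were also highest, and its part in those values was not tested. The 6 dendritic cell markers summed to 5.91 to 17.6 in MBCs and 1.53 to 5.69 in PCs, and 0 of the 1 tested was called. The 6 T cell markers summed to 0 to 1.08 in MBCs and 14.6 to 35.2 in PCs, where 2 of the 2 tested, Cd3e and Trac, were called higher. Trac met the minimum only through its PC values and so had to lie higher in PCs. Cd3e reached 1 TPM in 1 MBC library and also needed its PC values to meet the minimum. Between the groups, Cd3e and Trac moved with Tlr2 and Ly96, whose scaled PC values all lay above their MBC values. Among the PC libraries the T cell sum was lowest in replicate 1, at 14.6, where Ly96 was highest, at 123.8, and Tlr2 lowest, at 2.12. The part of T cell transcripts in the values of Tlr2 and Ly96 was not tested.

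Some genes outside the lists had values much like those of the called members, measured by the root mean square difference of log2 values centred on each gene's mean over the 7 libraries, as a description. The 3 nearest to Tlr1 were Bcl11a (0.392), H2-Oa (0.408) and Ciita (0.487). Those nearest to Tlr9 were Rnf157 (0.277), Cnr2 (0.286) and Gm27818 (0.289), and to Cd180 F730043M19Rik (0.206), Evl (0.228) and Sesn3 (0.233). Ly86 was nearest to H2-Ob (0.220), S1pr3 (0.229) and Prkcb (0.255). H2-Oa, H2-Ob and Ciita belong to antigen presentation by MHC class II.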

How the data were processed

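RNA of 3 MBC and 4 PC libraries was sequenced after amplification. The authors deposited TPM (reads of a gene divided by its length and by the library's sum) for 48795 genes. The submitters' processing notes name STAR 2.5.2a, RSEM 1.3.0, DESeq2 1.18.1 and the build GRCm38; the annotation release is not given in the sources used here. Symbols and coordinates came from GENCODE M21, which matched 48349 gene IDs, and promoters from RefSeq. No column of another sample was present. Titles carry 4 codes with 2 prefixes, and the labels do not say what these mark; MBC replicate 3 and PC replicate 4 share the less frequent prefix.

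For scaling, the 9305 genes above 0 in every library were compared with their geometric means, and TPM was divided by the median of these ratios for each library. The 11573 genes that reached 1 TPM in 3 or more libraries entered limma 3.58.1 (R 4.3.3) as log2(scaled TPM + 1), with no covariate and a mean-variance trend; this scale understates the change of low genes. Ratios used deposited TPM with 0.1 added and an exact permutation test. Python 3.11.15, numpy 2.4.6, pandas 2.3.3, scipy 1.17.1 and matplotlib 3.10.9 did the rest. The members and lists were chosen with earlier results of these data known. All members were named, with every gene of a list of 5 or fewer and up to 3 called genes with the largest fold change of each longer list.

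TPM holds no read totals, so depth was estimated from the steps between low values of genes with a single transcript: 74.0% to 82.7% of these values fell within 0.15 of a whole read, where coincidence gives 30%. A floor of 3 reads for a 1 kb transcript was 0.184 to 0.487 TPM; floors cover counting error only. At least 99.3% of the genes differed between any pair of libraries, so none was a copy. Whether libraries are paired was checked: deviations of libraries with the same replicate number had r = 0.109, -0.0398 and -0.0832, and those with the same title code 0.109, -0.00436 and 0.222. All pairs of an MBC and a PC library ranged from -0.176 to 0.222, and the highest pair, MBC replicate 3 with PC replicate 4, shares a title code. With so few pairs the check cannot decide for or against a pairing. The main fit and the permutation tests used none, and fits with either block are given as alternatives. The limma step was tested on simulated data. Alternatives changed the scaling, pseudocount, filter, trend, block and libraries used. The B lineage marker list is not reported as a whole here.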

Additional observations from a re-analysis of the deposited data

Results flagged for a closer look

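Unc93b1 was 64.5 scaled TPM in PC replicate 3 whereas the other 3 PC libraries had 59.6 to 59.99. The gap took 0.923 of the group's whole range, above Dixon's 95% critical value for 4 samples. The difference is small beside the level and owes its standing to the nearness of the other values. It was 1 of 23 values examined this way, and chance alone gives about 1 in 20.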

How the results depend on the processing

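Tlr1, Tlr9, Cd180 and Ly86 kept their direction and their call in 64 of 64 values over 16 alternative settings. Their log2 fold changes ranged from -5.57 to -4.13 (highest adjusted p = 0.0056, limma), -4.33 to -2.82 (0.0269), -4.12 to -2.59 (0.0122) and -3.63 to -1.92 (0.0287). Members called numbered 4 to 5 when a library was left out, 4 with the replicate block by number and by title code, and 7 with TPM as deposited, where Tlr3 (-3.37, limma, adjusted p = 0.0276), Tlr6 (-2.91, 0.0112) and Unc93b1 (-1.78, 0.0058) were added. That setting moved the median of all tested genes from 0.14 to -0.91, and the share of higher genes among the calls from 74.9% to 13.5%; it was 47.7% with immunoglobulin genes removed and 59.5% with quantile normalization, which added Tlr6 (-2.23, 0.0495). Genes called numbered 990, against 3490 with TPM as deposited, 560 with no filter on low values, 450 with the replicate block, 517 with the block by title code, and 549 to 2505 when a library was left out: 2505 without MBC replicate 3, 549 without PC replicate 2, 631 without PC replicate 3 and 591 without PC replicate 4. Pathway genes called numbered 8, against 18 with TPM as deposited, 3 with the replicate block, 4 with the block by title code and 4 to 10 when a library was left out, 4 of them without PC replicate 2. With the replicate block Lrrc59 (2.21, limma, adjusted p = 0.0507), Pik3ap1 (-2.14, 0.0949) and Irf8 (-1.96, 0.0810) lost their calls, and with the block by title code Pik3ap1 (-1.84, 0.101) and Irf8 (-1.82, 0.0743) did. These pathway alternatives were chosen after seeing the data. Signs turned, without a call, for Tlr4 (-0.68 to 0.40 when a library was left out, 0.40 without MBC replicate 2, 0.04 without PC replicate 4, 0.0391 with the replicate block), Tlr7 (0.0281 with a pseudocount of 0.1, -1.60 to 0.57 when a library was left out, 0.19 without MBC replicate 1) and Cd36 (-0.18 with TPM as deposited). The cause was not tested. The 4 ratios kept their direction in 11 alternatives each. Within the more frequent title prefix the log2 fold changes were -4.88 for Tlr1, -3.53 for Tlr9, -3.11 for Cd180 and -2.69 for Ly86, all called; the other prefix has 1 library a group. The least precise members were Tlr3 and Tlr7, with an SE of 0.96 and 0.94.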
